A study of Bos taurus with 13 samples.

Results

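In bovine umbilical cord mesenchymal stem cells, 23 of 16595 genes met the rule below, which includes limits on the mean level. Their mean log2 normalised RNA level was at least 1 higher after 6 h at 40.5 °C than after 6 h at 37 °C. After 3 days it stayed close to the matching 37 °C level, both under continued heat and after a return to 37 °C. These genes were chosen by their measured values. With y = log2(value + 1), a member had a mean value over the 13 libraries from 50 to under 20000 and a 6 h heat minus 6 h control difference of at least 1. That difference is called the 6 h rise. The member's 3-day heat minus 3-day control difference had to be under 0.4 in size, and its recovery minus 3-day control difference under 0.5. The differences after heat and after recovery are therefore given as descriptions without a test. The median 6 h rise of the members was 1.13 on the log2(value + 1) scale, with a range from 1.00 to 1.79, or 2.004-fold to 3.46-fold. The description as genes induced only by short heat did not hold for all of them. In 8 of the 23, the RNA level was as high or nearly as high after 3 days at a constant 37 °C as after 6 h of heat.

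Mesenchymal stem cells are adherent multipotent stromal cells that can be grown from connective tissues, among them the umbilical cord. When cells are warmed above their normal temperature, unfolding proteins release heat shock factors, which switch on transcription of chaperone genes, and many other transcripts rise or fall. In textbook accounts much of this response is transient, because rising chaperone levels feed back on the heat shock factors and the level of a short-lived transcript falls once its synthesis slows.

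The cells were primary cultures from early passages, 2 to 4, kept in low-glucose medium with serum, antibiotics and glutamine, and the treatments began a day after seeding. Polyadenylated RNA was sequenced in 5 groups. The 6 h control (n = 3) stayed at 37 °C, and the 6 h heat group (n = 3) was moved to 40.5 °C for the same 6 h. The 3-day control (n = 2) stayed at 37 °C for 3 days, and the 3-day heat group (n = 3) spent those 3 days at 40.5 °C. The recovery group (n = 2) had 6 h at 40.5 °C and then 66 h at 37 °C. The sources used here do not state that the libraries came from separate animals or donors, so p-values measure the spread between these libraries, which may be technical. The depth was between 14859428 and 39117065 recovered reads in a library, and the fewest reads of any member in any library were 8. The series text sets the immediate effects of heat against stable and delayed ones. The labelled cell type was not checked against marker genes here, because none of the gene identifiers matched the gene table used. The members are therefore numbered from 1 to 23 by the size of their 6 h rise, member 1 having the largest. Member 1 is ENSBTAG00000010164 and member 2 is ENSBTAG00000001303. In bulk RNA, fewer cells of a type and less RNA per cell cannot be told apart.

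The members were a small share of the genes with a 6 h rise of at least 1. In the mean range there were 11182 genes, of which 175 had a 6 h difference of at least 1. Among these 175, the difference after recovery was within 0.5 of the 3-day control for 141 (80.6%), whereas the difference after 3 days of heat was within 0.4 for 30 (17.1%). Both limits were met by the 23 members (13.1%). The limit on continued heat thus removed most of the candidates: 140 of the 175 (80.0%) had a 3-day heat difference of at least 0.4, and 5 had one of -0.4 or below. A difference of at least 0.5 after recovery was present in 25 genes, and one of -0.5 or below in 9. The 152 other genes with a 6 h rise of at least 1 in the same mean range had a median 3-day heat difference of 0.86, against 0.14 for the members, a gap that the rule itself fixes. In the plot of the differences after 3 days, the members fill a box inside a continuous cloud of points and no gap sets them apart from the genes with larger 3-day heat differences.

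**Figure D1:**
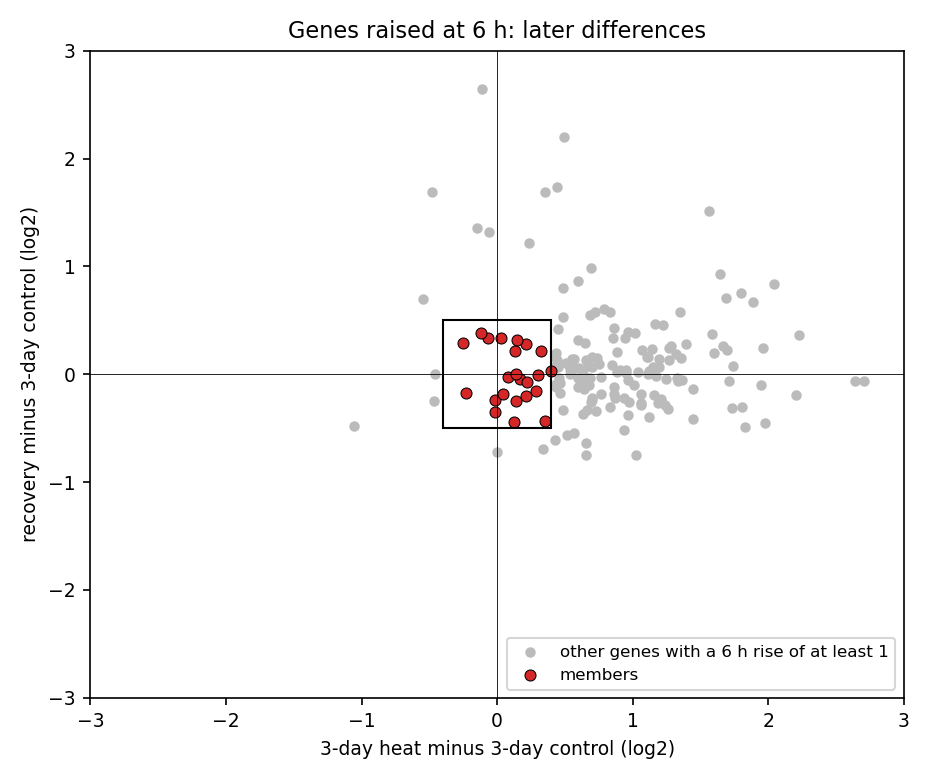
Difference from the 3-day control after 3 days of heat (horizontal axis, log2) and after recovery (vertical axis, log2) for the genes in the mean range with a 6 h rise of at least 1, each point being 1 gene. Of the 175 genes 173 lie inside the axes; the 23 members fill the box given by the limits of 0.4 and 0.5, and most other genes lie to its right.

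The limits were set on estimates, and several members stood close to them. The smallest 6 h differences inside the limit were 1.00 and 1.01, and the nearest outside were 0.99 and 0.95. For the 3-day heat difference the largest sizes inside were 0.40 and 0.35, and the nearest outside were 0.42 and 0.42. For recovery they were 0.44 and 0.43 inside, and 0.69 and 0.72 outside. The lowest mean values inside were 53.1 and 54.1, and the nearest outside were 44.8 and 44.5. Among the members, the median standard error was 0.19 for the 6 h difference, 0.21 for the 3-day heat difference and 0.23 for the recovery difference. A 3-day difference under the limit therefore does not show that a member had no response at that time. Replicate 3 was present in 3-day heat but not in the 3-day control. Within replicates 1 and 2 the 3-day heat difference was 0.44 for member 3 and 0.45 for member 8, both outside the limit. Of the 23 members, 17 had a 3-day heat difference above 0 and 10 had a recovery difference above 0. The rule limited both differences and no share over all genes is set beside these counts, so nothing is read from them.

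By their levels in the 5 groups the members fell into 3 patterns. In 12 members all 3 libraries of 6 h heat were above all 10 other libraries, and the 3-day groups differed from the 6 h control by -0.25 to 0.59 on the log2 scale. In 8 members the 3-day control exceeded the 6 h control by at least 50% of the 6 h rise, and the 3-day heat and recovery groups were high as well. The same held for 30 of the 152 other genes with a 6 h rise of at least 1 (19.7%), against 34.8% of the members, and the limits of the rule were set on differences from this 3-day control. In the remaining 3 members the peak at 6 h of heat was present in the group means, but the libraries of 6 h heat overlapped with 3-day libraries. These patterns were defined after the values had been seen, and no test was made between them.

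**Figure D2:**
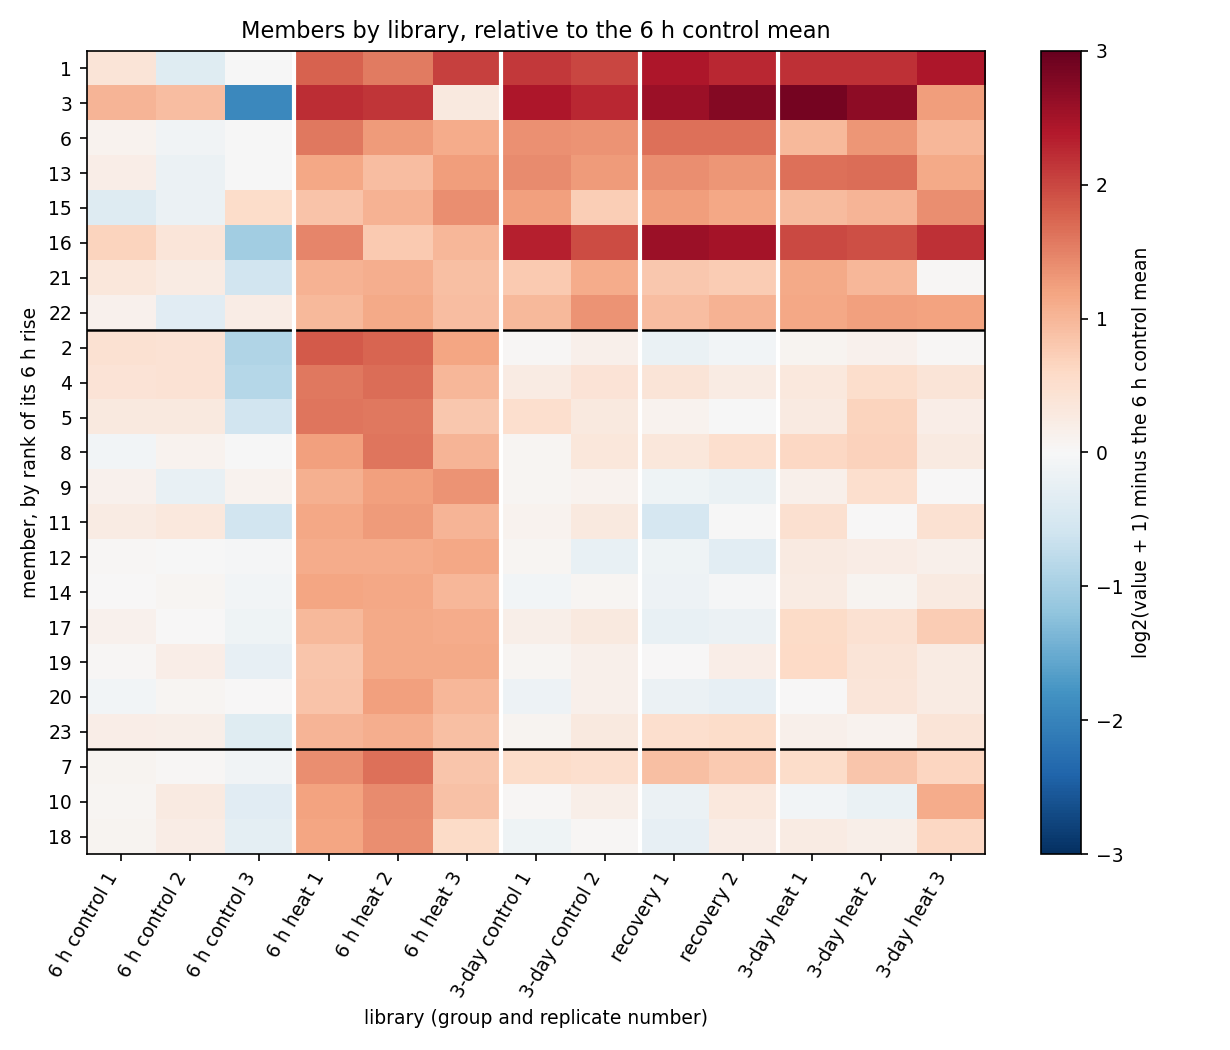
Colour gives the level of each of the 23 members in each of the 13 libraries, as log2(value + 1) minus the member's mean in the 6 h control, with members ordered by pattern and libraries by group. The 12 members with a peak are high in the 3 libraries of 6 h heat alone, and the 8 members with a high 3-day control are high in all 3-day groups, with the exception of member 21 in 3-day heat replicate 3.

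Requiring 6 h heat to exceed all 10 other libraries kept 12 of 23 members (52.2%). The same held for 990 of the 13684 tested genes (7.23%) and for 74 of the 152 other genes with a 6 h rise of at least 1 (48.7%). The share among the members was thus near that of the other genes with a rise of this size. All 3 libraries of 6 h heat were above all 3 of the 6 h control in 22 of 23 members, against 20.6% of the tested genes, and limma called 14.8% of the tested genes higher at 6 h. The rule used this contrast, so nothing is read from the difference.

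Member 2 had the largest rise among the 12 with a peak. In replicates 1 to 3, in this order, its normalised values were 3128, 3093 and 1224 at 37 °C for 6 h and 8129, 7710.4 and 5188 in 6 h heat. After 3 days they were 2327 and 2540.4 in the control, 1993 and 2141 in recovery and 2408, 2498 and 2330.0 under continued heat. Each heat library at 6 h was above every other library, and replicate 3 was the lowest library of the 6 h control and of 6 h heat. The group means were 2482 ± 1089 (SD, n = 3) and 7009 ± 1591 (SD, n = 3), a difference of 1.59 on the log2 scale. The 3-day heat difference was -0.012 and the recovery difference -0.24.

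Member 4 had 234, 238 and 96.3 in the 6 h control and 524, 559 and 352 after 6 h of heat. It had 206 and 235 in the 3-day control, 227 and 206 in recovery and 218, 254 and 228 in 3-day heat. Again replicate 3 of the 6 h control was far below the other libraries, and the 7 libraries of the 3-day groups lay between 206 and 254. Member 5 also had its lowest library there, with 45.1, 45.0 and 24.1 in the 6 h control and 113, 112 and 65.0 in 6 h heat. Its 3-day libraries had 52.1 and 44.9 in the control, 39.1 and 36.3 in recovery and 44.1, 58.8 and 42.0 in heat, so both recovery libraries were below all 5 of the other 3-day libraries.

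Member 8 had close replicates in the 6 h control, at 114, 129 and 119, and 284, 366 and 244 after 6 h of heat. Its 3-day control was 126 and 154, recovery 154 and 170.0 and 3-day heat 187, 195 and 146. The 3-day groups all lay below the lowest 6 h heat library, and the 3-day heat difference of 0.33 was among the larger ones that met the limit. Member 9 had 89.1, 69.5 and 87.1 in the 6 h control against 171, 191 and 208 in 6 h heat. Its level was 85.0 and 87.2 in the 3-day control, 73.8 and 71.0 in recovery and 90.8, 115 and 81.5 in 3-day heat. For this member replicate 3 of the 6 h heat group was the highest library of all 13.

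Member 11 had 47.5, 49.9 and 26.4 in the 6 h control and 89.4, 98.2 and 82.1 in 6 h heat. It had 42.5 and 48.7 in the 3-day control, 27.9 and 39.6 in recovery and 56.2, 39.97 and 54.7 in 3-day heat. Its recovery difference of -0.44 was the lowest of the 23, just within the limit. The tightest replicates belonged to members 12 and 14. Member 12 had 530.2, 509 and 504 in the 6 h control, 1114, 1118 and 1143 in 6 h heat and 534 and 444 in the 3-day control. Its recovery libraries had 467 and 411 and its 3-day heat libraries 618, 602 and 568. Member 14 had 1065, 1096 and 998 in the 6 h control, 2376, 2372 and 2092 in 6 h heat and 989 and 1090.0 in the 3-day control. Its values were 948 and 1023 in recovery and 1253, 1119 and 1267 in 3-day heat. In both, the 3-day heat libraries were all above those of the 3-day control and of recovery, by far less than the rise at 6 h: the 3-day heat difference was 0.29 for member 12 and 0.22 for member 14.

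Members 17, 19, 20 and 23 complete this pattern with rises of 1.07, 1.04, 1.02 and 1.00. Their means went from 89.4 ± 7.77 (SD, n = 3) to 189 ± 11.3 (SD, n = 3) for member 17 and from 129 ± 20.3 (SD, n = 3) to 267 ± 31.3 (SD, n = 3) for member 19. Member 20 went from 70.3 ± 3.76 (SD, n = 3) to 144 ± 19.2 (SD, n = 3), and member 23 from 41.0 ± 8.73 (SD, n = 3) to 82.0 ± 5.26 (SD, n = 3). Across the 12 members, 6 h heat exceeded the mean of the 3-day groups by 0.69 to 1.58, and recovery differed from the 6 h control by -0.25 to 0.52.

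**Figure D3:**
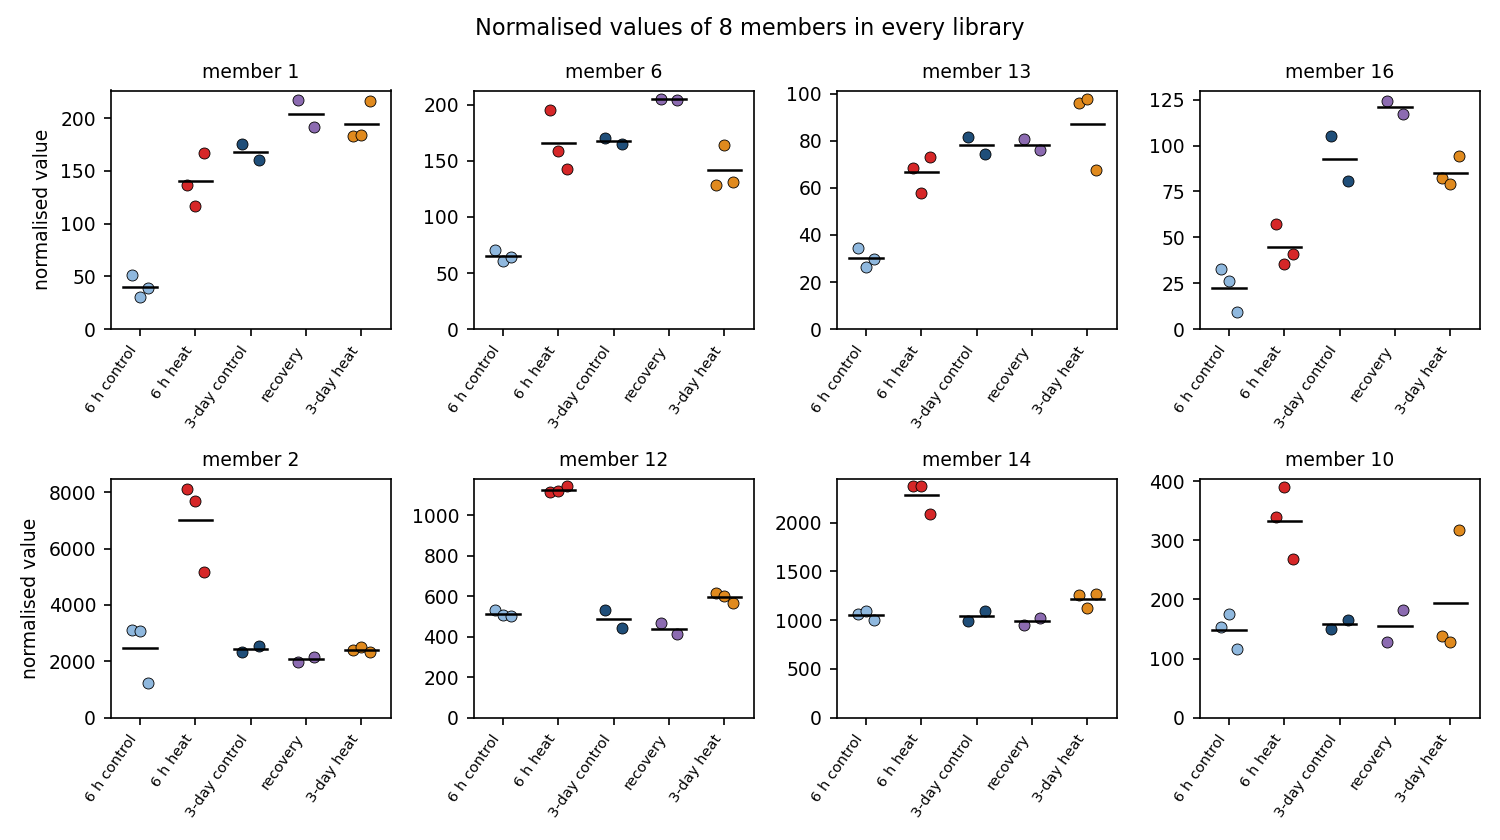
Normalised value (linear axis from 0) of selected members in the 5 groups, each point being 1 library and each bar a group mean. Member 2 is high in 6 h heat alone, while member 1 has 160.3 or more in all 7 libraries of the 3-day groups and between 117 and 167 in 6 h heat.

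The second pattern included the gene with the largest rise of all. Member 1 had 51.8, 30.3 and 39.0 in the 6 h control and 137, 117 and 167 after 6 h of heat. Its 3-day values were 175 and 160.3 in the control, 217 and 191 in recovery and 183, 184 and 216 in heat. All 3-day libraries, the unheated ones included, were thus above all libraries of the 6 h control, and 6 of the 7 were above those of 6 h heat. The mean was 40.3 ± 10.8 (SD, n = 3) in the 6 h control, 140.0 ± 24.9 (SD, n = 3) in 6 h heat and 168 ± 10.6 (SD, n = 2) in the 3-day control. Its rise at 6 h of heat was 1.79, and its difference between the controls 2.06.

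Member 3 differed most between replicates. It had 159, 148 and 19.5 in the 6 h control and 365, 347 and 95.8 in 6 h heat. Its values were 419.9 and 376 in the 3-day control, 469 and 535 in recovery and 579, 503 and 186 in 3-day heat. Replicate 3 was low in each of the 3 groups that had one, and it made member 3 the single member whose 6 h heat and 6 h control libraries overlapped. Member 6 was steadier, with 70.4, 60.5 and 64.2 in the 6 h control and 196, 159 and 143 in 6 h heat. It had 170.0 and 165 in the 3-day control, 206 and 205 in recovery and 129, 164 and 131 in 3-day heat, and the recovery libraries were the highest of the 13.

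Member 13 had 34.3, 26.2 and 29.8 in the 6 h control and 68.6, 57.9 and 73.0 in 6 h heat. After 3 days it had 81.5 and 74.4 in the control, 80.5 and 75.9 in recovery and 96.0, 97.7 and 67.5 in heat. Both 3-day control libraries were above every library of 6 h heat. Member 15 had 56.6, 65.4 and 109 in the 6 h control, where replicate 3 was the highest, and 134, 154 and 195 in 6 h heat. It had 176 and 124 in the 3-day control, 178 and 167 in recovery and 144, 149.9 and 196 in 3-day heat. Here the 6 h heat libraries and those of the 3-day groups overlapped.

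Member 16, which had the fewest reads in a single library, had values of 32.5, 26.2 and 9.17 in the 6 h control and 57.2, 35.3 and 41.1 in 6 h heat. It had 105 and 80.8 in the 3-day control, 124 and 117 in recovery and 82.2, 78.8 and 94.2 in 3-day heat, all above every 6 h heat library. Member 21 had 667, 631 and 354 in the 6 h control and 1089, 1131 and 995 in 6 h heat. Its 3-day values were 921 and 1146 in the control, 924 and 898 in recovery and 1174, 1057 and 541 in heat, with replicate 3 low in the 6 h control and in 3-day heat. Member 22 had 50.6, 36.0 and 53.9 in the 6 h control and 90.8, 102 and 89.0 in 6 h heat. It had 91.1 and 119 in the 3-day control, 88.1 and 95.7 in recovery and 105, 109.9 and 108 in 3-day heat, so the 7 libraries of the 3-day groups lay between 88.1 and 119. Over these 8 members, the 3-day control reached between 90.5% and 198% of the 6 h rise, and in 6 of them it was above the mean of 6 h heat.

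The 3 remaining members had a peak with an overlap. Member 7 had 33.1, 31.9 and 28.7 in the 6 h control, 83.4, 101 and 55.9 in 6 h heat and 46.0 and 44.9 in the 3-day control. Its recovery libraries had 59.5 and 54.5 and its 3-day heat libraries 45.8, 56.6 and 49.7, so recovery replicate 1 was above 6 h heat replicate 3, and 3-day heat replicate 2 was also above it. Member 10 had 153, 176 and 116 in the 6 h control, 339, 390.3 and 268 in 6 h heat and 150.1 and 165 in the 3-day control. It had 129 and 182 in recovery and 138, 128 and 318 in 3-day heat, where replicate 3 was above replicates 1 and 2 and above 6 h heat replicate 3. Member 18 had a rise of 1.05, from 41.6 ± 7.65 (SD, n = 3) to 88.6 ± 24.6 (SD, n = 3), and had 53.2 ± 9.16 (SD, n = 3) in 3-day heat. Its 3-day heat replicate 3, at 63.7, was above 6 h heat replicate 3, at 61.6.

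The change with time at 37 °C, the 3-day control against the 6 h control, was the one comparison tested, since the rule sets no limit on it. It shares its libraries with the rule: a low 6 h control raises both this difference and the 6 h rise, and a high 3-day control raises this difference and lowers the 3-day heat and recovery differences, on which the rule set limits. Its p-values for the members are therefore not independent of their choice, and the counts are given as a description. Of the 23 members, 7 (30.4%) were called higher in the 3-day control by limma (adjusted p threshold 0.05) and 0 were called lower, against 11.7% of all tested genes higher and 13.6% lower. Among the 152 other genes with a 6 h rise of at least 1, 21.7% were higher and 13.8% lower. These genes were chosen by the same 6 h rise but not by the same limits after 3 days, and are no matched comparison: of the 140 with a 3-day heat difference of at least 0.4, 18.6% were higher, and of the 5 with one of -0.4 or below, 4 were. At an unadjusted p under 0.05 there were 9 members, all higher, against 18.3% of tested genes higher and 20.2% lower. Both edgeR and DESeq2 on the recovered reads called 7 members higher and 0 lower. Over all tested genes edgeR called 3511, 1707 of them higher, and DESeq2 called 3848, 1804 of them higher. The limma estimate was above 0 in 20 of 23 members (87.0%), in 57.9% of the 152 other genes and in 48.9% of the tested genes. Both 3-day control libraries were above all 3 of the 6 h control in 10 of 23 members, against 25.8% of tested genes, and below them in 0, against 27.3%.

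The 7 called members were 1, 6, 13, 15, 16, 21 and 22, all of the second pattern. That pattern was defined by the same difference between the controls, so this overlap follows largely from the sorting. Member 16 had a difference of 2.15 (SE 0.41, limma adjusted p 0.00451) and member 1 one of 2.06 (SE 0.21, limma adjusted p 0.000225). Member 6 differed by 1.36 (SE 0.16, limma adjusted p 0.000441) and member 13 by 1.35 (SE 0.20, limma adjusted p 0.00148). These 4 had the largest rises of the 7, followed by member 22 with 1.16 (limma adjusted p 0.00222). Members 15 and 21 were nearer to the threshold, with 0.99 (limma adjusted p 0.0217) and 0.95 (limma adjusted p 0.0459). Member 3 had an estimate of 2.34, with a standard error of 0.84 and a limma adjusted p of 0.0628. That estimate was the largest over all libraries, and fell to 1.36 without replicate 3 of the 6 h control, below those of member 1 (2.05) and member 16 (1.63) without it. Without replicate 1 of the 3-day control, 4 members stayed past the threshold, namely 1, 6, 13 and 22.

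Among the 12 members with a peak, the difference between the controls was from -0.080 to 0.39, and the lowest limma adjusted p was 0.23. A p above the threshold does not show equal levels, and the intervals differed in width. The 95% interval was -0.21 to 0.17 for member 14 and -0.28 to 0.12 for member 12, but -0.64 to 0.82 for member 2 and -0.30 to 1.08 for member 5. Members with a high 3-day control had been sorted into the second pattern, so the sorting itself kept the difference between the controls small here. The intervals are therefore given as a description, and no bound on the difference is read from them. Within replicates 1 and 2, member 2 was lower in the 3-day control, with a difference of -0.36 (limma adjusted p 0.000403). Over all libraries its difference was 0.093 (limma adjusted p 0.86). With the replicate number added to that fit it was -0.13 (limma adjusted p 0.65). The 8 members of the second pattern were all higher within replicates 1 and 2, by 0.66 to 2.05 (limma adjusted p from 5.24e-07 to 0.000168). The sorting into both patterns used the same difference in shared libraries, so nothing is read from the p-values of either pattern. Of the 13684 tested genes, 5950 were called within replicates 1 and 2, 2982 of them higher and the rest lower.

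**Figure D4:**
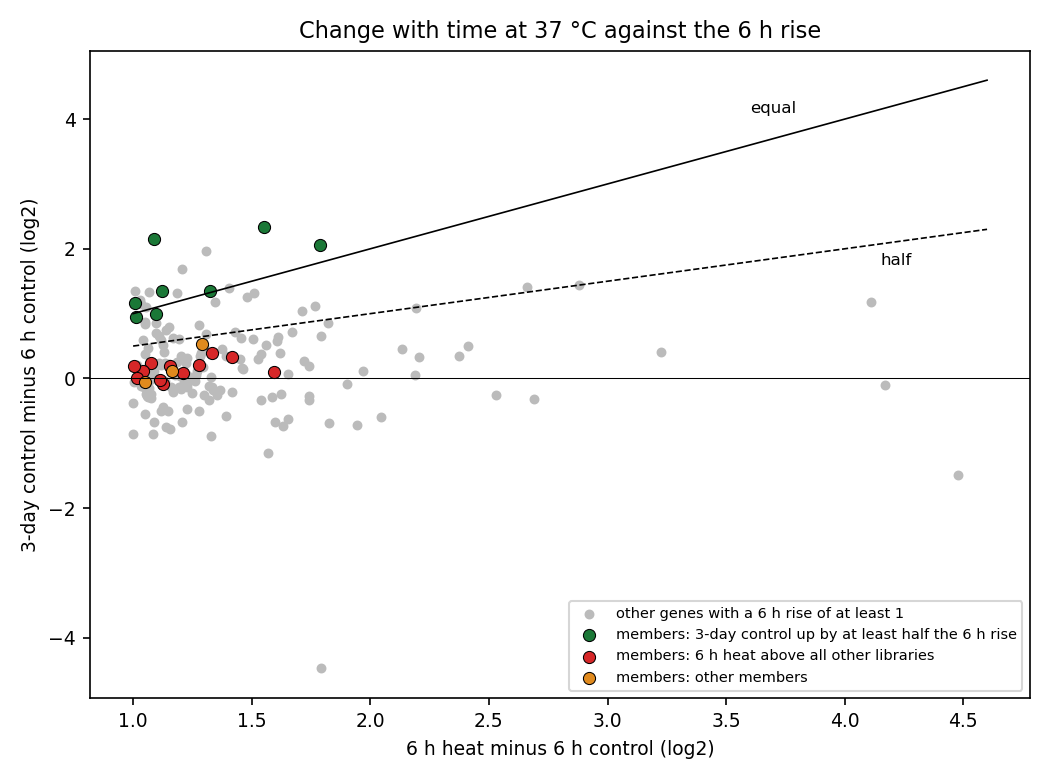
Difference between the 3-day and the 6 h control (vertical axis, log2) against the 6 h rise (horizontal axis, log2) for the 23 members (coloured by pattern) and the 152 other genes with a 6 h rise of at least 1 (grey), each point being 1 gene, with lines where the vertical value equals 100% and 50% of the horizontal one. The 8 members of the second pattern lie at 0.95 or above on the vertical axis and the other 15 at 0.53 or below.

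The size of the 6 h rise differed between the replicate numbers, and replicate 3 of the 6 h control was often a member's lowest library. This library held the lowest of the 13 values for 12 of the 23 members. The rule asked for a 6 h control below 6 h heat, so a low library in that group favoured the choice of a gene. No count over all genes is set beside it, and nothing is read from it. The mean of the members' log2 levels was 6.29 in it, against 6.81 and 6.73 in replicates 1 and 2. In replicates 1 to 3 it was 7.88, 7.93 and 7.65 in 6 h heat and 7.37, 7.39 and 7.33 in 3-day heat. Replicate 3 was thus the lowest of each group that had one, by most in the 6 h control. In the 6 h control, the means of the 152 other genes with a rise were 7.58 in replicate 3 and 7.67 and 7.68 in replicates 1 and 2. Over all genes in the mean range they were 9.31, 9.30 and 9.30. Why this library was low for the members was not tested.

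In all 23 members 6 h heat was above the 6 h control within each replicate number, and in 10 the difference was at least 1 in all 3. The rule chose the members by the mean of these differences, so nothing is read from the counts. Member 16 differed most, with a rise of 0.80 in replicate 1, 0.42 in replicate 2 and 2.05 in replicate 3. Member 3 had a rise of 1.19, 1.23 and 2.24, and member 2 one of 1.38, 1.32 and 2.08. Members 21 and 11 also had a larger rise in replicate 3, at 1.49 and 1.60. The closest replicates were those of member 10, with 1.14, 1.15 and 1.204, and of member 14, with 1.16, 1.11 and 1.07. In member 9 the mean of replicates 1 and 2 was 1.19 against 1.24 in replicate 3, although replicates 1 and 2 themselves had 0.94 and 1.45. In 8 members the rise in replicate 3 was smaller than the mean of replicates 1 and 2.

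**Figure D5:**
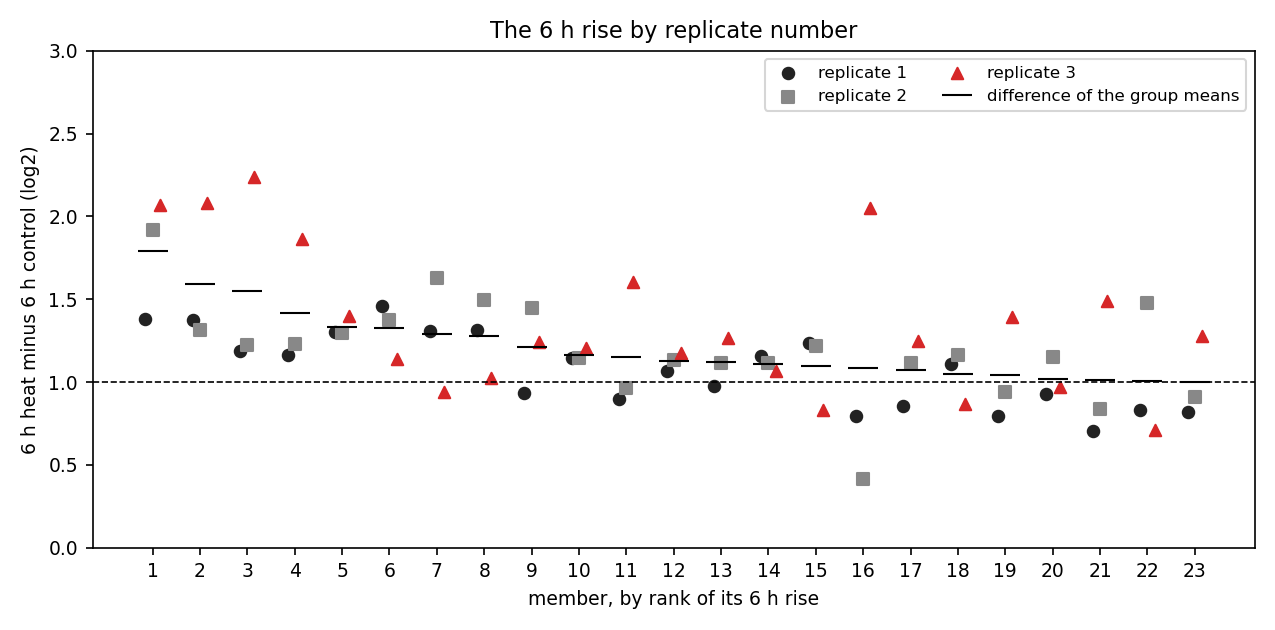
Rise at 6 h (6 h heat minus 6 h control, log2) of each member within replicates 1, 2 and 3, with a bar for the difference of the group means and a dashed line at 1. All points lie above 0, and members 1, 2, 3 and 16 have their replicate 3 above 2.0.

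Without replicate 3 of the 6 h control, the 6 h difference fell below 1 in 9 members, which were then no longer members. It was 0.56 for member 16 and 0.58 for member 3, and 1.14 for member 2. Without it, the 3-day control still exceeded the 6 h control by at least 50% of the 6 h rise in 8 members. The rule applied without this library gave 23 genes, 14 of them among the members reported. Without replicate 2 of 6 h heat it gave 19 genes, 16 of them among the members reported. When the rule was applied again with its limits unchanged, leaving out each of the 13 libraries or changing the pseudocount, the scaling or the replicates used (18 settings), 7 members were kept in all of them: members 1, 2, 5, 6, 9, 13 and 14. Of these, members 2, 5, 9 and 14 had a peak at 6 h of heat and members 1, 6 and 13 had a high 3-day control. Member 18 was kept least often, in 9 of the 18.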

How the data were processed

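Polyadenylated RNA from 13 libraries was sequenced by the submitters. Per the submitters' processing notes, the tools were cutadapt, STAR, HTSeq and DESeq and the build was ARS-UCD1.2; versions are not given in the sources used here. The authors deposited a normalised signal per gene under Ensembl identifiers, scaled with DESeq per the submitters' processing notes. In every library 100% of the values were whole multiples of 1 read within 0.01 reads, and these recovered reads were used for count tests as alternatives. Groups and replicate numbers came from the titles, which give 66 h of recovery where the series text speaks of 3 days.

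Values were taken as log2(value + 1), which understates changes of low genes. Genes with a value of at least 10 in at least 2 libraries were tested, 13684 in all (82.5%), among them all 23 members. The 5 group means were fitted over all 13 libraries with limma 3.58.1 in R 4.3.3 (empirical Bayes with a mean-variance trend, 8 residual degrees of freedom). P-values are two-sided and Benjamini-Hochberg adjusted over all tested genes, with a threshold of 0.05. Intervals are limma's 95% intervals. The members, lists and alternatives were chosen with earlier results of these data known. The text names the 15 members with the largest 6 h rise, the members called with time at 37 °C, those of highest mean value, those nearest each limit, and those whose replicates differ most and least. Values are not corrected for gene length, so levels of different members are not compared.

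Same-numbered libraries of the 6 h control and 6 h heat deviated together from their group means, with r of 0.51, 0.50 and 0.72 across genes. Those of 3-day heat did so too, with r of 0.33, 0.28 and 0.47 against the 6 h control and 0.34, 0.27 and 0.51 against 6 h heat. The labels state no shared donor or day. Between the 6 h and 3-day controls r was -0.05 and 0.13. Libraries of unlike number were not compared, and deviations from the mean of a small group are not independent. A shift of replicate 3 alone would also make replicates 1 and 2 deviate together, so pairing by number was not shown. The procedure was tested on simulated reads of 13684 genes for the 3-day against the 6 h control. It recovered 73% of 100 genes changed by a log2 of 1 and 97% of 100 changed by 2. It also called 8 unchanged genes. The simulated libraries held no shift shared by replicate number and few changed genes, so these rates need not hold for the data. Alternatives were other pseudocounts, filters, scalings, limits, a replicate block, fewer groups or replicates, edgeR 4.0.16, DESeq2 1.42.0 and each library left out. The 26 gene lists, marker genes and promoter sequences planned were not analysed here, because 0 of 16595 identifiers matched the gene table used.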

Additional observations from a re-analysis of the deposited data

How the results depend on the processing

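The number of members depended on the limits. It was 23 as reported, 7 with the limits on the 3-day differences at 50% of their size, 53 with these limits 1.5 times as wide, 3 with a 6 h rise of at least 1.5, and 43 with one of at least 0.8. Leaving out 1 library gave 19 to 28 members. Of the 23 members, 16 were lost without at least 1 single library, and 12 were kept, with the limits unchanged, under each of 5 further settings: pseudocounts of 0.5 and 5, quantile and upper quartile scaling, and replicates 1 and 2 only.

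For the 3-day against the 6 h control, 3467 genes passed the threshold as reported, 5950 within replicates 1 and 2, 1655 when only these groups were fitted, and 872 to 3928 with 1 library left out, the lowest count being without replicate 1 of the 3-day control. Leaving out a 3-day control library leaves 1, which is assumed to vary like the other groups. The 7 members higher in the 3-day control became 4 when only these groups were fitted and 4 to 9 with 1 library left out. The number of lower members, 0 as reported, was 1 within replicates 1 and 2. With the replicate block, 5028 genes passed and 8 members were higher. For 6 h of heat 2846 genes were higher with the block in place of 2024. Of all genes passing for the 3-day control, 1601 of 3467 were higher as reported and 2982 of 5950 within replicates 1 and 2. The counts were 811 of 1655 when only the controls were fitted and 2503 of 5028 with the block, the rest being lower. Nothing is read from the member counts. Members 1, 6, 13 and 22 stayed past the threshold in all 24 alternatives. Member 15 lost it in 4, member 16 in 2 and member 21 in 10, and none reversed. The cause was not tested, apart from the fewer samples or genes that the settings themselves use. The results for gene lists, markers and promoter motifs were not run. The fewest reads of a member in a library were 8 (member 16).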

Other observations

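The same limits on the 3-day differences were also applied to the genes that were lower after 6 h of heat. In the mean range, 285 genes had a 6 h difference of -1 or below, and 74 of them (26.0%) were within 0.4 of the 3-day control after 3 days of heat and within 0.5 after recovery. Among the 175 genes with a difference of at least 1 the share was 13.1%, and among the 8818 genes with a difference between -0.5 and 0.5 it was 63.6%. Genes with a difference between 0.5 and 1 met the limits in 29.7%, and those between -1 and -0.5 in 40.1%. The share within the limits was thus smaller on the side of the genes that were higher at 6 h. These shares are descriptions without a test. Lowering the smallest 6 h rise from 1 to 0.8 would have added 20 genes that met all other limits.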
